A study of Mus musculus with 6 samples.

Results

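The genes described here are 36 genes of skeletal muscle, measured in RNA from whole mammary glands of Elf5 knockout (KO) and wild-type mice. They were chosen by name, as sarcomere, calcium-handling and energy genes of muscle fibres, and all 36 had a probe set among the 18193 genes measured. The series holds 3 Elf5 KO and 3 wild-type glands, each on 1 one-colour Affymetrix mouse array, and the titles speak of separate animals numbered as biological replicates 1 to 3 in each genotype. The sample labels give pregnancy day 17, whereas the series' design text gives lactation day 1. No strain, age, or account of how and in which cells the Elf5 allele was disrupted is given in the sources used here, which limits what the knockout glands stand for.

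Skeletal muscle fibres contract when calcium released from the sarcoplasmic reticulum binds troponin C on the thin filament and lets myosin heads of the thick filament pull on actin. Fast and slow fibres use different genes for the same parts: troponins, myosin heavy and light chains and calsequestrins each come as fast and slow forms. Mammary epithelium, fat and stroma do not build sarcomeres, but the gland lies under the skin next to muscle of the body wall, and its own myoepithelial and vessel cells contract with smooth muscle proteins. The comparison asks how the muscle transcripts found in these glands differ between the genotypes and between the arrays. In whole-gland RNA, fewer fibres and less RNA per fibre cannot be told apart.

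Some facts of all arrays touch the values below. Signals are the deposited MAS5 intensities, which have the same trimmed mean in every array, and differences are on the log2(signal + 16) scale unless a signal is named. Elf5, the targeted ETS factor of luminal epithelium, was lower in each Elf5 KO array (3128 to 5616) than in each wild-type array (7244 to 12011); it differed by -1.06 ± 0.32 (limma adjusted p = 0.109, and 0.0151 in the paired fit). As a sign of RNA quality, the Gapdh control probe sets gave a 3'/5' ratio of 0.802, 3.89 and 13.65 in Elf5 KO arrays 1, 2 and 3 and of 0.833 to 1.085 in wild type. The beta-actin control probe sets gave 1.578, 1.867 and 20.996 in Elf5 KO arrays 1, 2 and 3 and 1.196 to 2.043 in wild type. By beta-actin, Elf5 KO array 2 lay within the wild-type range, and wild-type array 1, at 2.043, was the one over 2 there. Values over the 4 arrays with a Gapdh ratio under 2, which hold only Elf5 KO array 1, are also given. That choice rests on Gapdh alone. Arrays of the same replicate number deviated together from their group means over all genes tested, with correlations of 0.459, 0.336 and 0.291 for numbers 1, 2 and 3, each over the limit of 0.1 for taking the numbers as pairs. The highest such correlation between arrays of different numbers was 0.149, which is also over that limit. Without the members and other muscle genes these correlations were 0.456, 0.314 and 0.289. Results of limma with the replicate number as a block (the paired fit) are given beside the fit without it.

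Promoters are shown for 3 members: 2 myosin heavy chains that differed in their highest array, and actin. They are 300 bases each, from 250 before to 50 after the start, from RefSeq on GRCm38.p6, written 5' to 3' on the gene's strand. Capitals mark TATAAA, the E-box CAGCTG bound by myogenic factors, the CArG box bound by serum response factor and the MEF2 site, each searched on both strands, with overlaps allowed. Myh4 encodes the myosin heavy chain of the fastest (IIb) fibres, Myh1 that of IIx fibres, and Acta1 skeletal muscle actin.
Myh4, chr11:67237562-67237861, plus strand: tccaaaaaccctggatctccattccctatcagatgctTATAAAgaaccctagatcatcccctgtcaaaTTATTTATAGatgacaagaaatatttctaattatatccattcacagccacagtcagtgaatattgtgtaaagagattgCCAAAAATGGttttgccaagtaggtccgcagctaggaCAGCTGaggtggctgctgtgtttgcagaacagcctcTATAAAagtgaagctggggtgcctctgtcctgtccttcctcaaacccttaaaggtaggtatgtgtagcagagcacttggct
Myh1, chr11:67199852-67200151, plus strand: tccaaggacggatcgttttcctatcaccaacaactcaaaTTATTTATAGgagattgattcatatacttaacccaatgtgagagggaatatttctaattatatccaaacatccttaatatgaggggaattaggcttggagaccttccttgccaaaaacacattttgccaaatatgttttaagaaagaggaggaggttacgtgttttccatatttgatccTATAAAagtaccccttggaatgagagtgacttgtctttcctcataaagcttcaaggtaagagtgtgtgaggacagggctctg
Acta1, chr8:123894726-123895025, minus strand: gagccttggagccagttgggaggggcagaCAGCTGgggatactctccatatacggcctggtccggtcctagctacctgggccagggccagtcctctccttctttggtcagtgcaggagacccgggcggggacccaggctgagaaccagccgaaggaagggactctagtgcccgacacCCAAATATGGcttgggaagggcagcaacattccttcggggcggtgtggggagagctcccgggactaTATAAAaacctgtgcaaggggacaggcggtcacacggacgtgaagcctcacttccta
The Myh4 window holds all 4 motifs, the Myh1 window has a MEF2 site and TATAAA, and the Acta1 window lacks only the MEF2 site. The windows of the troponin C genes Tnnc2 and Tnnc1, which are not shown, hold none of the 4. Among the 28 members with a promoter entry, CAGCTG was found in 14 of 28 member promoters (50%), against 16.1% of 27025 promoters of all genes with 1 window a gene. Promoters of 1 chromosome were left out of all these counts. The MEF2 site was found in 6 of 28 member promoters (21.4%), against 3.26% of 27025 promoters of all genes, and the CArG box in 3 of 28 member promoters (10.7%), against 1.57% of 27025 promoters of all genes. TATAAA stood in 6 of 28 member promoters (21.4%), against 14.2% of 27025 promoters of all genes. The looser E-box CANNTG, which includes CAGCTG, was found in 23 of 28 (82.1%, against 72.1%). Tnni2, Tnnt3, Actn3, Neb, Tcap, Myoz1, Myot and Sln have no entry in the table used.

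Most of the muscle genes were high and low in the same arrays. Elf5 KO array 2 carried the highest signal for 28 of the 36 members, and wild-type array 2 was the highest of the wild-type arrays while Elf5 KO array 2 was the highest of the Elf5 KO arrays for 29. Summed over the members, the signal was 4553, 17053 and 5823 in Elf5 KO arrays 1, 2 and 3 and 1443, 8689 and 1715 in wild-type arrays 1, 2 and 3. So the arrays numbered 2 were high in both groups, and within each number the Elf5 KO array was above the wild-type array. Of the 24 members that passed the filter on low signals, 19 were highest in Elf5 KO array 2, against 18% of all genes tested, and 14 had Elf5 KO array 2 and wild-type array 2 as their highest arrays, against 5.18%. The median distance between a gene's highest and lowest array was 3.13 on the log2 scale over the 36 members and 1.27 over the 10916 genes tested.

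**Figure D1:**
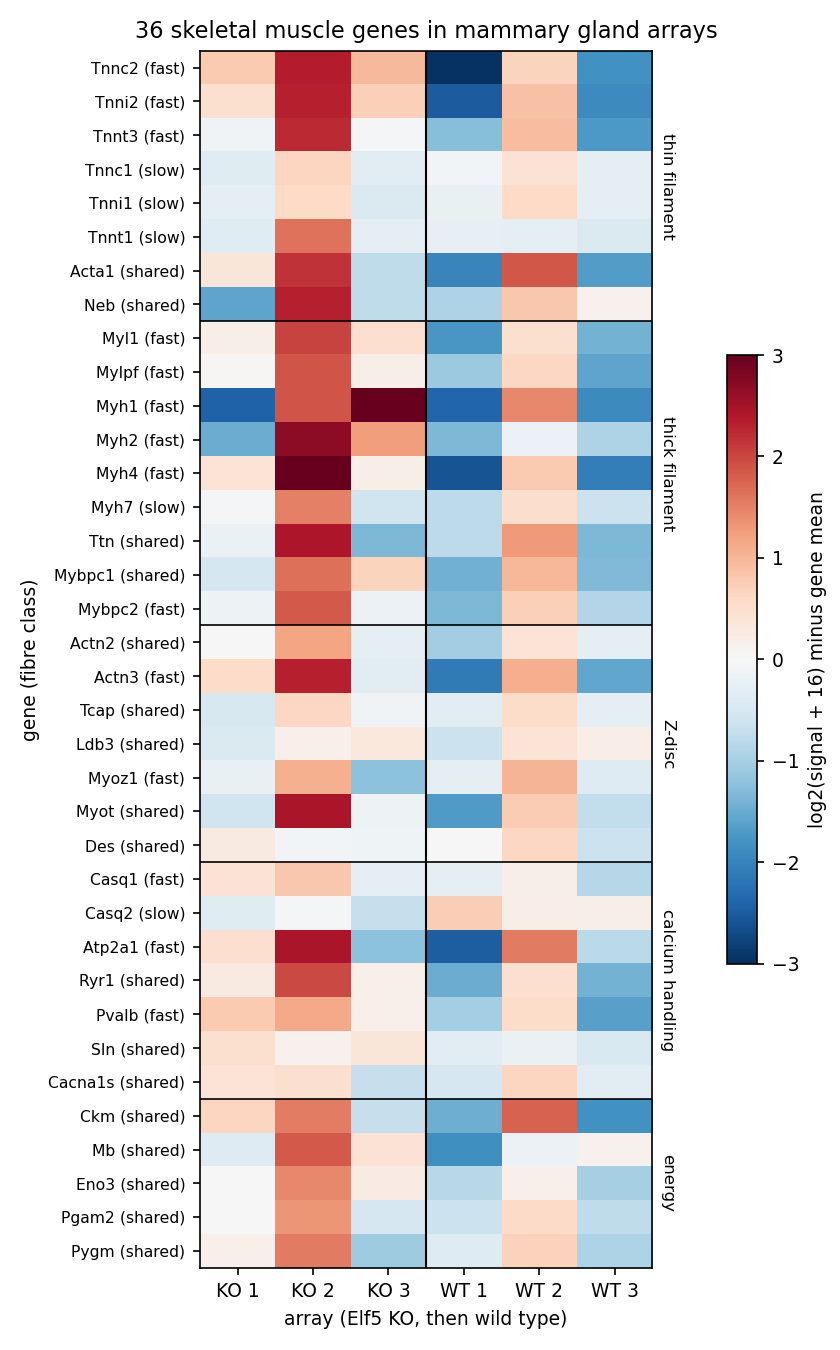
Colour gives log2(signal + 16) minus the gene's mean over the 6 arrays for each of 36 muscle genes (rows, grouped by role, with fibre class) in each array (columns, Elf5 KO then wild type). The columns KO 2 and WT 2 are mostly red, with 28 genes highest in KO 2, while Myh1 is highest in KO 3 and Casq2 in WT 1.

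The fast troponins, which form the calcium switch of the thin filament in fast fibres, were highest of each group in the arrays numbered 2. Within each number they were higher in Elf5 KO. Tnnc2, the calcium-binding subunit, read 427, 1310.5 and 487.5 in Elf5 KO arrays 1, 2 and 3, against 16.9, 392.1 and 57 in wild-type arrays 1, 2 and 3. Tnni2, the inhibitory subunit, read 258, 965 and 304 in the Elf5 KO arrays, against 18.3, 345 and 35.6 in the wild-type arrays. Tnnt3, which ties the complex to tropomyosin, read 154, 847 and 160.1 in the Elf5 KO arrays, against 59.7, 334 and 39.1 in the wild-type arrays. All 3 were highest in Elf5 KO array 2, and Tnnc2 alone of the 24 members tested had every Elf5 KO array above every wild-type array, as 16.7% of all genes tested did. Their log2 differences were 2.75 ± 0.80 for Tnnc2, 2.36 ± 0.81 for Tnni2 and 1.38 ± 0.77 for Tnnt3 (moderated SE, n = 3 arrays per group), with limma adjusted p = 0.101, 0.143 and 0.316. In the paired fit all 3 rose (limma adjusted p = 0.0125, 0.0125 and 0.0184). Skeletal actin, Acta1, read 790.1, 2784 and 355 in the Elf5 KO arrays, against 143.5, 2268 and 180.4 in the wild-type arrays, so wild-type array 2 lay above Elf5 KO arrays 1 and 3. Acta1 differed by 1.18 ± 0.99 (limma adjusted p = 0.496, and 0.0785 in the paired fit). Neb, the giant protein that runs along the thin filament, read 1.8, 254 and 15.5 in the Elf5 KO arrays, against 12.1, 78.2 and 42.1 in the wild-type arrays and lay under the filter; its difference of -0.01 turned positive after quantile normalization.

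Myosin light chains of fast fibres behaved like the troponins. Myl1, an essential light chain, read 304, 1147 and 387 in the Elf5 KO arrays, against 68.5, 379 and 91.3 in the wild-type arrays. Mylpf, the fast regulatory light chain, read 224, 840.5 and 247 in the Elf5 KO arrays, against 91.4, 342 and 61.6 in the wild-type arrays. In both genes the arrays numbered 2 were the highest of their group and the groups overlapped through wild-type array 2. Myl1 differed by 1.80 ± 0.63 (limma adjusted p = 0.15) and Mylpf by 1.39 ± 0.63 (limma adjusted p = 0.233), and both rose in the paired fit (limma adjusted p = 0.0125 and 0.0192). Mybpc2, the fast myosin-binding protein C, read 52.3, 254 and 51.3 in the Elf5 KO arrays, against 13.8, 108 and 25.1 in the wild-type arrays; it differed by 1.01 ± 0.64 and rose only in the paired fit (limma adjusted p = 0.369 without and 0.0412 with the block, and 0.0787 with the block and no filter). Mybpc1, its slow-type relative that fast fibres also use, read 22.5, 156 and 71.3 in the Elf5 KO arrays, against 4.2, 93 and 5.9 in the wild-type arrays and lay under the filter. Ttn, the titin spring of the sarcomere, read 70.2, 514 and 22.8 in the Elf5 KO arrays, against 41.5, 223.5 and 23 in the wild-type arrays, with Elf5 KO array 3 at the bottom, and differed by 0.57 ± 0.92 without passing in either fit (limma adjusted p = 0.734 and 0.221).

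The myosin heavy chain genes did not keep a common proportion between arrays. Myh4, of IIb fibres, read 234, 1807 and 196 in Elf5 KO arrays 1, 2 and 3, against 15.3, 306 and 28.2 in wild-type arrays 1, 2 and 3. Myh1, of IIx fibres, read 17.8, 655 and 1886 in the Elf5 KO arrays, against 19.3, 482 and 32.8 in the wild-type arrays. Myh2, of IIa fibres, read 3.6, 334 and 114 in the Elf5 KO arrays, against 5.7, 32.7 and 12.7 in the wild-type arrays and lay under the filter. In Elf5 KO array 1, Myh4 was above wild-type arrays 1 and 3 whereas Myh1 and Myh2 were below both, and Myh1 was highest in Elf5 KO array 3, where Myh4 was at 10.9% of its highest signal. A second probe set of Myh1 gave 15.3, 707 and 2039.9 in the Elf5 KO arrays, against 12, 408 and 33.1 in the wild-type arrays, with the same order at the top. Myh4 differed by 2.59 ± 0.96 (limma adjusted p = 0.169) and rose in the paired fit (limma adjusted p = 0.0121). Myh1 differed by 1.88 ± 1.38 (limma adjusted p = 0.435, and 0.174 in the paired fit). Without Elf5 KO array 1, Myh1 was higher by 3.57 and passed (limma adjusted p = 0.0451), as 5.98% of all genes tested did upward and 5.07% downward there; over the 4 arrays with a low Gapdh ratio it differed by -1.49 and Myh2 by -0.67. Myh1 lies between Myh2 and Myh4 on chromosome 11 with no other coding gene between them in GRCm38.p6, and transcripts of these near-identical genes can share probes. Myh3 and Myh8, the embryonic and perinatal chains, stayed at or below 27.7 in all 6 arrays.

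**Figure D2:**
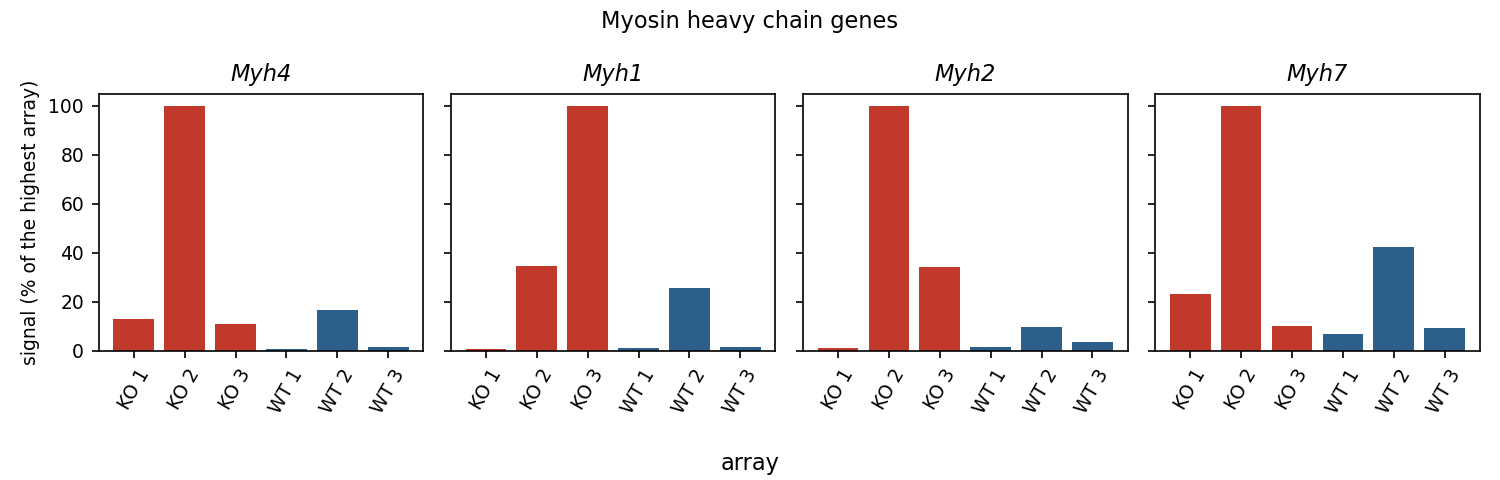
Bars give the signal of Myh4, Myh1, Myh2 and Myh7 in each array as a percentage of that gene's highest array (Elf5 KO red, wild type blue). Myh4, Myh2 and Myh7 are highest in KO 2, Myh1 is highest in KO 3 and at 34.7% in KO 2, and Myh1 and Myh2 are near 1% in KO 1, where Myh4 is at 13%.

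Genes of the Z-disc, where thin filaments are anchored, were split. Actn3, the alpha-actinin of fast fibres, read 133, 496 and 64.5 in the Elf5 KO arrays, against 7.4, 200.5 and 18.4 in the wild-type arrays; it differed by 1.71 ± 0.85 (limma adjusted p = 0.269) and rose in the paired fit (limma adjusted p = 0.0206). Myot, a cross-linker of actin, read 26.6, 334 and 41.6 in the Elf5 KO arrays, against 3.8, 92.5 and 22.8 in the wild-type arrays, and passed in the paired fit only (limma adjusted p = 0.0435, against 0.427 without the block, and 0.0802 with the block and no filter). Both were highest in Elf5 KO array 2 and next highest in wild-type array 2. Actn2, the alpha-actinin of all fibres and of heart, read 30.7, 91.5 and 23.2 in the Elf5 KO arrays, against 7, 46.2 and 23.1 in the wild-type arrays and lay under the filter. Tcap, the cap of titin, had signals of 41.7 to 108 over the 6 arrays, again highest in the arrays numbered 2, and Myoz1, a calcineurin-binding protein of fast fibres, read 85.2, 232 and 34.6 in the Elf5 KO arrays, against 82, 222 and 74.4 in the wild-type arrays. Tcap differed by 0.03, a direction that turned under median centring, and Myoz1 by -0.24, and neither passed in either fit.

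Des and Ldb3, which cells other than skeletal muscle also express, did not follow the others. Des, the intermediate filament of all muscle types, read 136, 104 and 100 in the Elf5 KO arrays, against 109, 181 and 65.6 in the wild-type arrays, and differed by 0.03 ± 0.36, a direction that turned when each array was centred on its median. Ldb3, a Z-disc linker, read 207, 321 and 362 in the Elf5 KO arrays, against 176, 385 and 329.5 in the wild-type arrays, with no array far from the rest. Its difference of 0.03 ± 0.37 turned under quantile normalization and under median centring, and its other probe sets over the filter disagreed: one differed by -0.93 and one by 0.91. The last of these had Elf5 KO array 2 as its highest array, as most members did. Des and Ldb3 did not pass in either fit (limma adjusted p = 0.973 and 0.968 without the block).

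Calcium-handling genes of fast fibres were also highest of each group in the arrays numbered 2. Atp2a1, the SERCA1 pump that refills the reticulum, read 218, 886 and 54.8 in the Elf5 KO arrays, against 13.6, 472 and 79.1 in the wild-type arrays. Pvalb, the calcium buffer parvalbumin of fast fibres, read 205, 268.5 and 128 in the Elf5 KO arrays, against 46.9, 173 and 25.7 in the wild-type arrays. Casq1, the calcium store protein of fast fibres, read 103, 139 and 58 in the Elf5 KO arrays, against 56.4, 85.1 and 33.2 in the wild-type arrays, a narrower spread. Pvalb differed by 1.396 ± 0.53 (limma adjusted p = 0.172), and of these 3 it alone rose in the paired fit, where its SE was 0.32 (limma adjusted p = 0.0296). Atp2a1 differed by 1.15 ± 1.05 and Casq1 by 0.64 ± 0.38, without passing in either fit (limma adjusted p = 0.185 and 0.119 in the paired fit). Ryr1, the release channel, read 44.3, 179 and 39.3 in the Elf5 KO arrays, against 1.8, 54 and 2.6 in the wild-type arrays. It lay under the filter, and without a filter this probe set rose in the paired fit (difference 1.60, limma adjusted p = 0.0314). A further probe set of Ryr1, dimmer still, differed by -0.36, with 3.4, 4.3 and 1.1 in Elf5 KO against 17.7, 5 and 3.9 in wild type. Cacna1s, the voltage sensor of that channel, and Sln, a small inhibitor of the pump, stayed at or below 30.9 in all arrays, under the filter. Sln read 16.6, 9.6 and 14.3 in the Elf5 KO arrays, against 2.5, 4.4 and 1.1 in the wild-type arrays. The groups were apart at these dim signals, as 16.7% of all genes tested were in that direction. Its other probe set, also dim, was apart the other way, with 2.7, 2 and 2.5 in Elf5 KO against 14.2, 12.5 and 4.8 in wild type. No direction is therefore read for Sln.

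Among energy genes, Eno3, the muscle enolase, read 202, 574 and 240.2 in the Elf5 KO arrays, against 106, 226 and 93.4 in the wild-type arrays. Ckm, muscle creatine kinase, read 281, 530.2 and 101.5 in the Elf5 KO arrays, against 52.5, 628 and 37.3 in the wild-type arrays, so that wild-type array 2 had the highest signal. Mb, the oxygen store myoglobin of oxidative fibres, read 46.8, 279 and 96.3 in the Elf5 KO arrays, against 7.2, 56.7 and 74.8 in the wild-type arrays. Eno3 differed by 1.12 ± 0.45 and rose in the paired fit (limma adjusted p = 0.032, against 0.195 without the block). Ckm and Mb differed by 1.01 ± 0.88 and 1.25 ± 0.63, without passing in either fit (limma adjusted p = 0.139 and 0.0513 in the paired fit). Pygm, the muscle glycogen phosphorylase, and Pgam2, the muscle phosphoglycerate mutase, were highest in Elf5 KO array 2 (211 and 96.7) and next highest in wild-type array 2 (109 and 51.1).

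**Figure D3:**
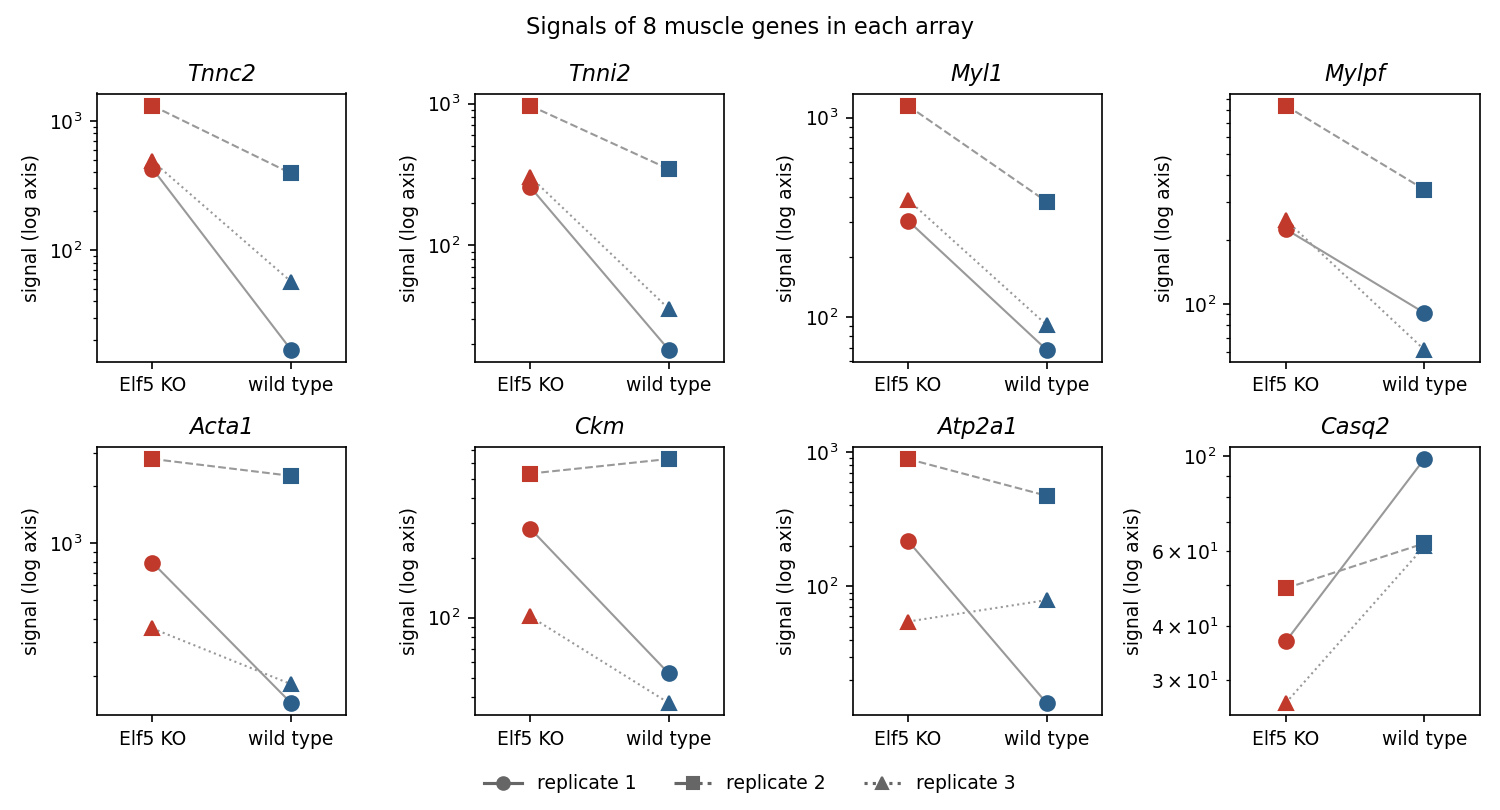
Signals on a log axis of 8 muscle genes in each array, Elf5 KO left and wild type right, with a grey line joining arrays of the same replicate number. Replicate 2 (squares) is the highest of its group in 7 of these genes, and all but Casq2 are higher in the Elf5 KO array of replicate 1.

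Slow-fibre genes were dim throughout. Tnnc1, slow and cardiac troponin C, read 27, 70.2 and 27.1 in the Elf5 KO arrays, against 35.5, 57.7 and 29.4 in the wild-type arrays. Myh7, the slow and cardiac myosin heavy chain, read 22.4, 96.5 and 9.9 in the Elf5 KO arrays, against 6.6, 40.8 and 9.2 in the wild-type arrays. Tnnt1, slow troponin T, read 65.8 in Elf5 KO array 2 and no more than 6.3 in the other arrays, and Tnni1, slow troponin I, reached 18.7 at most. Elf5 KO array 2 was thus highest for Tnnc1, Myh7 and Tnnt1, although the mean level of each lay under the filter of 43.8. Casq2, the calsequestrin of slow fibres and heart, ran the other way and read 36.9, 49.1 and 26.5 in the Elf5 KO arrays, against 98.4, 62.5 and 61.5 in the wild-type arrays; it differed by -0.75 ± 0.31, with every Elf5 KO array below every wild-type array, as 10.6% of all genes tested were, and did not pass in either fit (limma adjusted p = 0.2 and 0.107). Its probe set name marks possible cross-hybridisation.

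Set side by side, the fast genes covered a wider range over the arrays than the slow ones, with median log2 ranges of 4.07 and 1.43. The mean log2(signal + 16) of the 14 fast members was 7.171, 9.21 and 7.48 in Elf5 KO arrays 1, 2 and 3, against 5.51, 7.96 and 5.80 in wild-type arrays 1, 2 and 3. That of the 5 slow members was 5.004, 6.15 and 4.81 in the Elf5 KO arrays, against 5.16, 5.57 and 4.99 in the wild-type arrays. Fast minus slow was thus 2.17, 3.06 and 2.67 in the Elf5 KO arrays, against 0.355, 2.38 and 0.80 in the wild-type arrays, and the groups overlapped through wild-type array 2. The difference between the groups was 1.45, with an SD of 0.45 among Elf5 KO and 1.06 among wild-type arrays (n = 3 each). It is given as a description without a test. Of the slow members 4 of 5 lay under the filter, where a change of level moves log2(signal + 16) little.

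**Figure D4:**
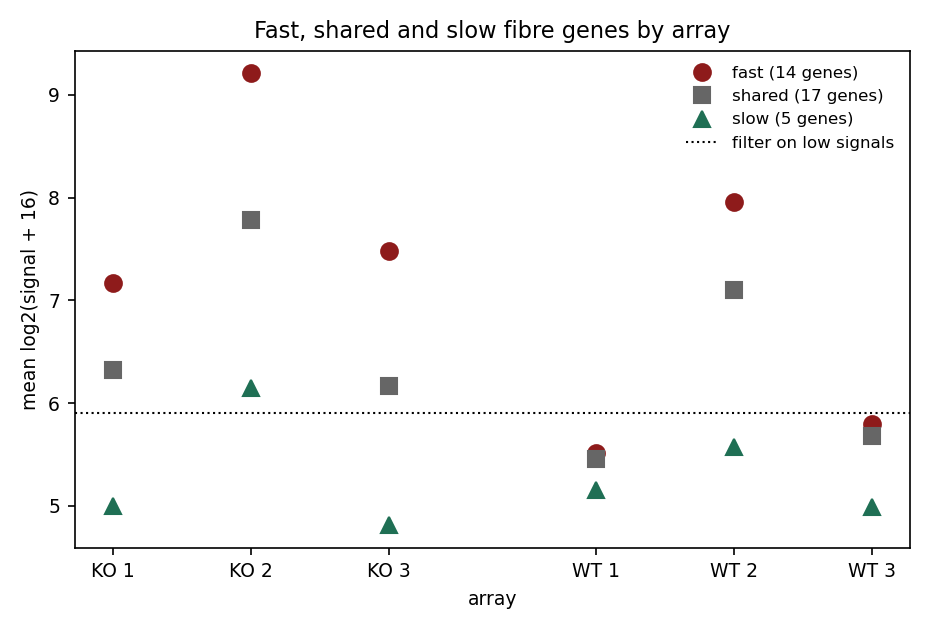
Points give the mean log2(signal + 16) of 14 fast, 17 shared and 5 slow members in each array, and the dotted line marks the filter on low signals. Fast genes range from 5.51 in WT 1 to 9.21 in KO 2, and slow genes from 4.81 in KO 3 to 6.15 in KO 2.

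In the comparison of the genotypes without a block, 0 of 24 members tested passed, against 1.24% of all genes tested in either direction and 1.13% upward, and 6 were higher at an unadjusted limma p under 0.05, against 13.4%. In the paired fit 11 of the 24 rose and 0 fell, against 7.7% and 4.53% of all genes tested. The 11 were Tnnc2, Tnni2, Tnnt3, Myl1, Mylpf, Myh4, Mybpc2, Actn3, Pvalb, Eno3 and Myot, of which 9 are fast members. The 24 tested held 13 fast, 10 shared and 1 slow member, so these calls do not compare fast with slow fibres. Of the 24, Actn3, Mb, Mybpc2 and Myot were over the filter by their Elf5 KO mean only, 3 of them among the 11, and Casq2 by its wild-type mean only, so their being tested is tied to the difference and the count is a description. Without a filter 8 of all 36 rose in the paired fit, against 2.54% of 18193 genes: 7 of these 11, without Mybpc2, Pvalb, Eno3 and Myot, and Ryr1. Over all 36 members the mean was higher in Elf5 KO for 31 (33 after quantile normalization and 28 after median centring), and the median log2 difference was 1.01, against 0.06 over all genes tested. For the fast members 13 of 14 were higher with a median of 1.51, for the slow 2 of 5 (4 of 5 after quantile normalization) with a median of -0.04, and for the shared 16 of 17 with a median of 0.61. All 3 same-numbered pairs were higher in Elf5 KO for 20 of 36 members, among them 14 of the 24 tested, against 30.7% of all genes tested. Median centring set the median of all genes at -0.045, against 0.063 in the deposited scale, so changes there are relative to that shift.

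**Figure D5:**
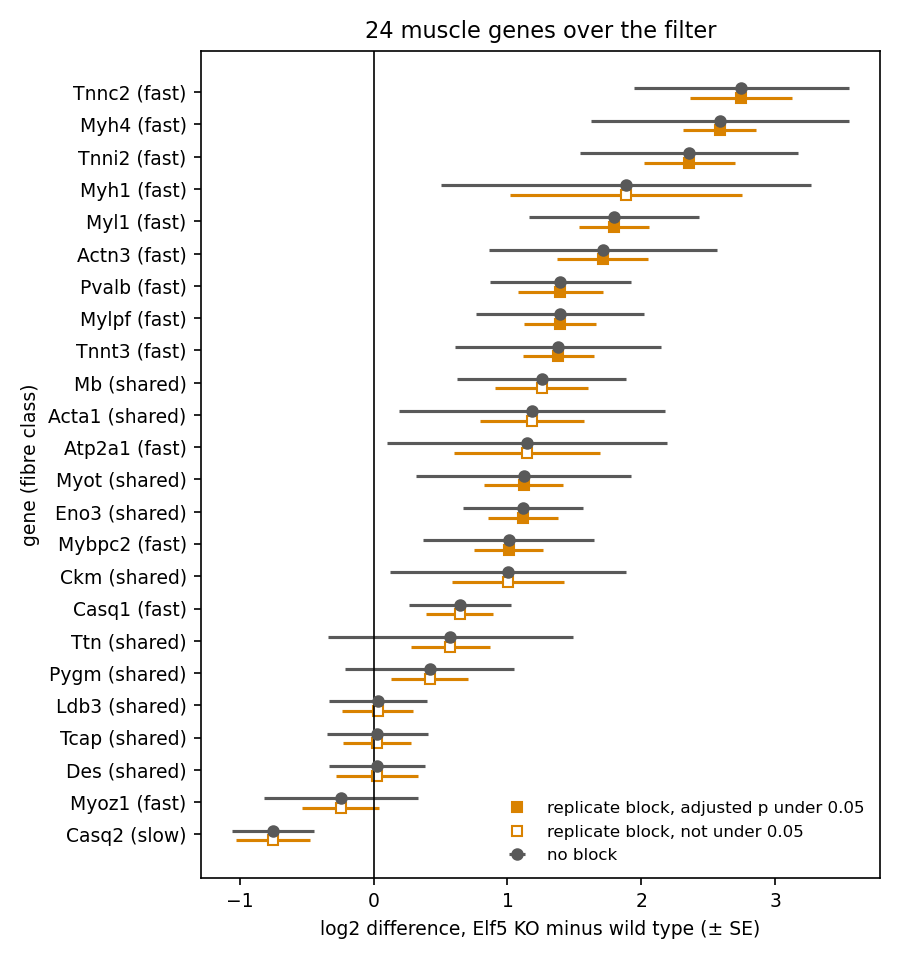
Log2 difference, Elf5 KO minus wild type, of the 24 members over the filter, with limma's SE without a block (grey circles) and with the replicate number as a block (orange squares, filled where the adjusted p is under 0.05). The 11 filled squares lie between 1.01 and 2.75, and Casq2 is lowest at -0.75.

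The size of the difference depended on single arrays. The median over the members was 0.88, 0.87 and 0.58 in replicate pairs 1, 2 and 3, and that of the fast members 1.51, 1.25 and 1.77. Over the 4 arrays with a low Gapdh ratio, where Elf5 KO array 1 stands alone, the medians were 0.32 for all members and 0.91 for the fast members. Without the arrays numbered 2, which was chosen after the signals were seen, they were 0.86 and 1.63. In wild type, array 2 had more muscle signal than array 1 by a median of 3.07 times over the members, after adding 16 to each signal, whereas Elf5 KO array 2 exceeded wild-type array 2 by a median of 1.83 times.

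The members varied together over the arrays. The median Pearson correlation between pairs of the 36 members over the 6 arrays was 0.757, and 0.814 after the group means were subtracted, against 0.010 and 0.004 between pairs of all genes tested. All pairs share the same 6 arrays. Fast members correlated with each other at a median of 0.838, slow members at 0.691 and shared members at 0.742. Against the mean profile of the other tested members, Mybpc2 had r = 0.987, Tnnt3 0.986, Actn3 0.978 and Acta1 0.972. At the other end stood Casq2 (-0.363), Sln (0.399), Ldb3 (0.428), Des (0.459) and Myh1 (0.586). In all, 13 of the 24 tested members had r over 0.9, as did 5 of the 12 under the filter, against 0.496% of 10892 other genes tested.

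Other genes followed this profile too. Of the 25 outside the members that were most like it, 0 stood on a list of other muscle genes, of which 33 were tested (0.303% of the others). Genes under the filter could not enter the 25, and most genes of that list lay under it. The 6 best were Dapk1, Cers4, Traf3ip1, Slc35b4, Blcap and Rasgrp3, with r from 0.967 to 0.987 over 6 arrays, and their signals moved little: Dapk1, a death-associated kinase, read 672, 875 and 672 in the Elf5 KO arrays, against 583, 745 and 606.5 in the wild-type arrays. The list of other muscle genes held 90 genes, 85 of them with a probe set, and many of these are made outside muscle. Its 6 brightest were Fabp3, Tpm2, Tpm3, Tpm1, Fhl1 and Pdlim3. Fabp3, a fatty acid carrier of heart and muscle that the lactating gland also makes, fell in the paired fit (-1.15, limma adjusted p = 0.0121). Of the 33 tested, Ppp1r3c, a glycogen-targeting subunit of protein phosphatase 1, rose without the block (2.40 ± 0.43, limma adjusted p = 0.0446). In the paired fit 3 rose (Ppp1r3c, Fhl1 and Cmya5) and Fabp3 alone fell, out of 33 tested, against 7.7% and 4.53% of all genes tested. The list's median difference was 0.01 over the 85 genes, and 44 were higher and 41 lower. Over these 85, on either side of the filter, the arrays numbered 2 were highest in both groups for 34, against 11% of all genes tested. Elf5 KO array 2 and wild-type array 2 were the highest 2 arrays for 20, against 5.18%. Part of the list thus shared the array pattern of the members.

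Markers of cells that might be taken for skeletal muscle differed in how far they peaked in the arrays numbered 2. The 10 markers of smooth muscle and myoepithelium summed to 13091, 17762 and 12328 in Elf5 KO arrays 1, 2 and 3, against 15651, 21824 and 19117 in wild-type arrays 1, 2 and 3, and 9 of 10 were lower in Elf5 KO without passing. The arrays numbered 2 had the highest sum of each group, and were highest in both groups for 6 of the 10, against 11% of all genes tested. These markers thus shared the array pattern of the members in part, but not the direction between the genotypes. One of the 6 was Myh11, smooth muscle myosin, which read 358, 1612 and 211 in the Elf5 KO arrays, against 567, 1192 and 755 in the wild-type arrays. Mylk, the smooth muscle myosin kinase, was among the 4 that differed and read 1078, 2215 and 711 in the Elf5 KO arrays, against 1115, 1934 and 2436 in the wild-type arrays. Of 6 heart markers only Myl4, an atrial light chain, passed the filter, and it read 58.9, 57 and 128 in the Elf5 KO arrays, against 41.3, 23.6 and 28 in the wild-type arrays, with no peak in the arrays numbered 2. Myh6, a heart myosin, reached 17.5 at most and Nppa, an atrial hormone, 21.1. None of the 8 genes of muscle precursors passed the filter, and Myod1 and Myog, which drive muscle differentiation, reached 26.1 and 39.8. Adipocyte markers summed to 35725, 28183 and 23973 in the Elf5 KO arrays, against 18324, 20422 and 21241 in the wild-type arrays, with no peak in the arrays numbered 2. Of the 6 measured, 5 had higher means in Elf5 KO and 1 lower. Retn (1.70) and Lep (2.22) rose in the paired fit only (limma adjusted p = 0.0179 and 0.0130). Brown fat markers summed to 10926, 2154 and 2472 in the Elf5 KO arrays, against 23928, 11059 and 9999 in the wild-type arrays, mostly Cidea, which the lactating gland is known to make and which fell in the paired fit (-2.34, limma adjusted p = 0.0123). The other brown fat markers had higher means in Elf5 KO, among them Ucp1 (1.26, not called) and Cox8b, which rose in the paired fit (1.80, limma adjusted p = 0.0467). Luminal markers summed to 33271, 36366 and 31881 in the Elf5 KO arrays, against 58870, 41976 and 31137 in the wild-type arrays. The milk protein genes Csn2 (-0.68) and Wap (-0.51) made up a large part of these sums. Krt8 and Krt18 differed by 0.27 and 0.45, and Krt19 and Epcam by -0.11 and -0.06. None of these 6 passed in either fit. Of the nerve markers only Pmp22 and Mbp were measured, and they summed to 1229, 1415 and 1875 in the Elf5 KO arrays, against 698, 503 and 696 in the wild-type arrays. Pmp22 rose by 1.60 in both fits (limma adjusted p = 0.0459, and 0.0151 in the paired fit), whereas Mbp differed by 0.22 and passed in neither. The Dap control added to the RNA was lowest in the arrays numbered 2, at 83.8 in Elf5 KO array 2 and 119.5 in wild-type array 2, against 463 to 2383 in the other arrays. The part that these measures have in the muscle signals was not tested.

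Other probe sets of the members gave a mixed check. Of the 36 members 12 had several probe sets, and 5 of their 20 further ones were over the filter. That of Tnni2 read 106.5, 267 and 192 in the Elf5 KO arrays, against 3.2, 187.5 and 37.3 in the wild-type arrays, so Elf5 KO array 3 and not wild-type array 2 came next after Elf5 KO array 2. That of Ttn read 32.8, 349.7 and 25.1 in the Elf5 KO arrays, against 2.6, 130.0 and 17.5 in the wild-type arrays, with Elf5 KO array 2 and wild-type array 2 at the top as for the chosen one. Differences were 1.71 for Tnni2 and 1.00 for Ttn. Of the 15 dim ones, those of Sln and Ryr1 are given with the calcium-handling genes. Most of the 15 had a lower mean in Elf5 KO, among them that of Myh4 (-0.40), which was highest in wild-type array 2. Those with a higher mean were a Ttn (0.18), a Mybpc1 (0.11) and a Myoz1 probe set (0.24). The 2 probe sets shared by Myh7 and Myh6 were not used.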

How the data were processed

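RNA from whole glands was measured on 1 array per mouse, 3 Elf5 KO and 3 wild type, grouped by sample title. The deposited values are linear signal intensities of 45101 probe sets; MAS5 and affy are named in the submitters' processing notes, with no version, role or order. Each array has a mean of 150.0 after trimming 2% at each end, a scaling that was kept. Depth does not apply to arrays, and their number limits the precision. The p-values set each difference against the spread between these samples, moderated over all genes tested. In the paired fit that spread is what remains after the replicate number is taken out.

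Probe sets were named through the platform annotation: 34958 had 1 gene, 932 several and 9211 none listed. Symbols were checked through Entrez numbers (0 updated, 204 without a current entry), and the 64 control probe sets were left out. For each of 18193 genes the probe set with the highest mean log2(signal + 16) was taken. Means of linear signals were tried first (119 genes called over all genes) and replaced by log2 means, which match an earlier analysis of these data. Genes at or under the 40th percentile of that mean (signal 43.8) were not tested, which left 10916. The genotypes were tested on log2(signal + 16) by lmFit and eBayes (intensity trend) of limma 3.58.1, under R 4.3.3; p-values were Benjamini-Hochberg adjusted across the 10916 genes, and 0.05 was the limit. This scale understates changes of dim genes. The paired fit adds the replicate number, because each same-numbered pair correlated over 0.1 and above every pair of different numbers (0.149 at most). Deviations from a group mean sum to 0, which pulls correlations between different numbers down when those of the same number are high. The labels state no pairing, so it was chosen from the same signals that the fit tests. The members and lists were chosen with earlier results of these data known. All 36 members are named; other genes were named by brightness, by passing the test, or by likeness to the mean member profile. List members without a probe set here were not analysed, and the alternatives are given in the closing section. Promoters come from RefSeq, and motif matches are descriptions.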

Additional observations from a re-analysis of the deposited data

How the results depend on the processing

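The medians over all members and over the fast members, and the mean of fast minus slow, kept their sign under all 21 alternatives. Settings that change only the filter, the trend or the block cannot move them. They moved by less than the SD between replicates (1.035, 1.514 and 0.817), a wide limit beside medians of 1.01 and 1.51. Leaving out 1 array gave 0.37 to 1.47, 0.89 to 2.20 and 1.04 to 2.05. The slow median of -0.04 was 0.13 after quantile normalization and 0.28 without _x_at, _s_at and _a_at probe sets, which leaves 2 slow genes, and -0.37 to 0.22 when 1 array was left out; the cause was not tested. The members called were 0, but 11 with the replicate block, 11 of 28 with the block when probe sets were chosen and filtered by linear means, and 8 of 36 with the block and no filter; they were 0 to 1 when 1 array was left out, the 1 being Myh1 without Elf5 KO array 1. With the block, Ryr1 was called on linear means and with no filter, where it was tested, and Myot in neither of these. Over all genes the 135 calls became 85 at a pseudocount of 1, 56 with no filter, 13 after median centring, 75 with the mean of all probe sets, 1335 with the block, 1310.0 with the block on linear means and 701 with the block and no filter. They were 0 in the 4 arrays with a Gapdh ratio under 2, where limma gave 1013 at an unadjusted p under 0.05, 0 without the arrays numbered 2 (946 unadjusted), and 0 to 1206 when 1 array was left out (9, 0 and 1 without wild-type arrays 1, 2 and 3; 1206, 1 and 6 without Elf5 KO arrays 1, 2 and 3; the 0 had 1553 unadjusted). The settings with linear means, with no filter and the block, and without the arrays numbered 2 were chosen after seeing the data. Dim slow genes limit what the arrays can show of slow fibres.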
